A study of Mus musculus with 12 samples.

Results

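The transporters described here are 8 genes that carry organic anions, bile salts or organic cations across the membranes of liver cells: Slco1a1, Slco1a4, Slco1b2, Slco2b1, Slco2a1, Slc10a1, Slc22a7 and Slc47a1. They were taken by gene symbol. Every probe set that the platform annotation assigns to exactly 1 of these genes was used, which gave 19 probe sets. The array has a probe set specific to 1 gene for 18193 genes, these 8 among them. All 8 lay above the low-signal filter (a log2 signal over 5 on at least 3 arrays), as did 15 of their 19 probe sets, and 8338 genes were tested in all.

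Liver RNA came from 12 male mice, 9 weeks of age and of the C57BL/6J strain, in 4 groups of 3. CKO CDDO-Im mice had 1 floxed Keap1 allele and 1 null allele together with Albumin-Cre (Albumin-Cre:Keap1(flox/-)) and received 30 umol/kg of CDDO-Im, a synthetic triterpenoid that activates the transcription factor Nrf2. CKO vehicle mice had the same alleles and received only the vehicle of DMSO, Cremophor-EL and PBS. WT CDDO-Im and WT vehicle mice had the same Cre with 1 floxed allele and 1 wild-type allele (Alb-Cre:Keap1(flox/+)) and had the same treatments. Doses were given once by gavage and livers were taken 6 h later. Mice of all 4 groups therefore carried Cre and a floxed allele, so WT is a name for Cre-positive controls. The Albumin promoter drives Cre in hepatocytes, and the null allele of CKO mice is present in every cell. Cre can act on the floxed allele of WT hepatocytes too. CKO livers are therefore compared with controls that keep 1 wild-type Keap1 allele, not with unaltered mice. The comparisons ask how activation of Nrf2 by Keap1 deletion, lasting as long as the deletion, and by 1 dose of drug each bear on the transporters.

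Hepatocytes take up bile salts, bilirubin, hormones and drugs from blood through carriers of the basolateral membrane and pass them to bile through exporters of the canalicular membrane. Slc10a1 (Ntcp) takes up bile salts with sodium. The Slco genes encode organic anion transporting polypeptides, which work without sodium and have broad and overlapping substrates, and Slc22a7 (Oat2) is an organic anion carrier of another family. Slc47a1 (Mate1) exchanges protons for organic cations and exports them into bile, so it is an exporter among genes grouped as uptake carriers. In mice the liver level of Slco1a1 is higher in males than in females.

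Slco1a1 and Slco1a4 are neighbours on chromosome 6 in the RefSeq gene order, and Slco1b2 lies in the same cluster. Their measured differences between the groups were unlike each other, so the 250 bases before the start of each are shown, from RefSeq on build GRCm38.p6. The windows are chr6:141946963-141947212 on the minus strand for Slco1a1, chr6:141856221-141856470 on the minus strand for Slco1a4 and chr6:141629268-141629517 on the plus strand for Slco1b2. Capitals mark matches to 3 motifs searched on both strands, the antioxidant response element core TGACNNNGC, to which Nrf2 binds, the STAT5 motif TTCNNNGAA and the HNF1 core GTTAAT.
Slco1a1: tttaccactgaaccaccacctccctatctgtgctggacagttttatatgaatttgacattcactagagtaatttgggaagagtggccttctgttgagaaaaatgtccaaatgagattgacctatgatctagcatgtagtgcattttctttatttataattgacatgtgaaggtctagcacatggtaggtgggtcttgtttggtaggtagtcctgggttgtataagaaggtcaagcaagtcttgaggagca
Slco1a4: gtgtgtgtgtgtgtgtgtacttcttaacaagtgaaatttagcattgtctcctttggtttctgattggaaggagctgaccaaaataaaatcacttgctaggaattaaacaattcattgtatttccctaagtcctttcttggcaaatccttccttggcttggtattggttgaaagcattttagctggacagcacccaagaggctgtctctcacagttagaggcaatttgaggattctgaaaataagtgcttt
Slco1b2: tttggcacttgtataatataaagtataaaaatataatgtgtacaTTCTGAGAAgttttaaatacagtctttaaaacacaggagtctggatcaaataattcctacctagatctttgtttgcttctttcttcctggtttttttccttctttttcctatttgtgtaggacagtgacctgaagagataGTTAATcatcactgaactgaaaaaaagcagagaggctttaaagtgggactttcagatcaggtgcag
The Slco1a1 and Slco1a4 windows held none of the 3 motifs. The Slco1b2 window held TTCNNNGAA with its first base 206 bases before the start and GTTAAT 66 bases before it. Windows were at hand for 6 of the 8 genes, 9 windows in all, and TGACNNNGC was in 0 of the 9, TTCNNNGAA in 3 (1 each of Slco1b2, Slco2b1 and Slc10a1) and GTTAAT in 1 (Slco1b2). Among 32851 windows of the same length, TGACNNNGC was in 10.2%, TTCNNNGAA in 7.02% and GTTAAT in 6.43%. A match here is a stretch of letters and not a measured binding site.

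The deposited values are already normalized between arrays. Replicates correlated at 0.996 to 0.998, and 16494 to 16776 of 45101 probe sets per array lay at the floor of 2.22. For Keap1, the probe set 1450746_at read 2.90 to 3.31 in CKO CDDO-Im and 2.74 to 2.87 in CKO vehicle livers, against 8.46 to 8.89 in WT CDDO-Im and 7.92 to 8.17 in WT vehicle livers. Nqo1, a quinone reductase induced by Nrf2, read 10.74 to 11.05 in CKO CDDO-Im, 11.04 to 11.16 in CKO vehicle, 9.56 to 9.86 in WT CDDO-Im and 5.18 to 6.96 in WT vehicle livers. A second Keap1 probe set, 1450747_at, read 6.28 to 6.45 in CKO CDDO-Im and 6.15 to 6.51 in CKO vehicle livers, against 7.76 to 8.08 in WT CDDO-Im and 6.58 to 7.48 in WT vehicle livers. Both genes went with the labels on all 12 arrays, and where these probes lie relative to the deleted part of Keap1 was not analysed here. Of 11 tested hepatocyte markers, 1 (Tdo2) was called different between CKO vehicle and WT vehicle livers, beside 6.51% of all genes. The mean over the 11 lay between 15.54 and 15.65 on every array. One array stood apart in a gene list that bears on the results. In CKO vehicle replicate 4 the mean of 6 female-biased genes was 9.18, against 6.68 and 7.25 in the other two CKO vehicle livers. Of these genes Cyp2b9, a cytochrome P450, read 11.83 on that array, against 2.49 and 4.66 on the other two, and the mean of the 5 others was 8.65, against 7.52 and 7.76. Differences between CKO vehicle and WT vehicle livers are also given without that array for Slco1a1, Slco1a4 and Slc22a7. The same was done for the lists of sex-biased, other transport, bile acid and regulator genes.

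Keap1 deletion without drug went with lower signal for 2 of the 8 transporters, Slco1a1 and Slc22a7, and with no called rise. Differences are in log2 signal, CKO vehicle minus WT vehicle, and were called at a limma adjusted p under 0.05 (Benjamini-Hochberg over the 8338 genes). By that rule 6.51% of all genes were called in either direction, and 3.26% were called lower. The median difference over the 8 genes was -0.18, beside -0.01 over all genes tested. Groups did not overlap for 4 of the 8, Slco1a1, Slco1b2, Slc10a1 and Slc22a7, beside 26.3% of all genes. In whole liver, fewer cells of a type and less RNA per cell cannot be told apart.

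Slco1a1 (Oatp1a1), a carrier of bile salts, steroid conjugates and other organic anions, had the largest difference of the 8. Its log2 signal was 11.53, 12.24 and 11.23 in CKO CDDO-Im livers, 11.75, 10.59 and 11.59 in CKO vehicle livers, 13.03, 13.05 and 13.41 in WT CDDO-Im livers, and 13.59, 13.63 and 13.19 in WT vehicle livers. All 6 CKO livers lay below all 6 WT livers, and CKO vehicle replicate 4 was the lowest of the 12. The mean was 11.31 ± 0.63 in CKO vehicle livers and 13.47 ± 0.24 in WT vehicle livers (SD, n = 3 each). The difference of -2.16 (SE 0.32, 95% interval -2.87 to -1.45) was a 4.46-fold lower signal, with a limma adjusted p of 0.00374. It was called in each of 12 fits that left out 1 array, between -2.38 and -1.80.

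A second Slco1a1 probe set, 1449844_at, showed the same order of groups. It read 9.08, 9.68 and 9.05 in CKO CDDO-Im, 9.25, 8.04 and 9.06 in CKO vehicle, 10.68, 10.84 and 11.35 in WT CDDO-Im and 11.32, 11.29 and 11.08 in WT vehicle livers. Again no CKO liver reached a WT liver. In a limma fit of each probe set, its difference between CKO vehicle and WT vehicle livers was -2.45 (SE 0.30, adjusted p = 0.00145), and 6.23% of the 13298 probe sets were called.

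Slc22a7, an organic anion carrier of the basolateral membrane, was measured by 1 probe set. Its log2 signal was 8.71, 8.15 and 7.90 in CKO CDDO-Im livers, 9.06, 8.13 and 7.58 in CKO vehicle livers, 9.78, 8.78 and 9.50 in WT CDDO-Im livers, and 11.01, 9.55 and 9.78 in WT vehicle livers. The CKO vehicle and WT vehicle groups did not overlap, and both were spread widely. The means of 8.26 ± 0.75 in CKO vehicle and 10.12 ± 0.79 in WT vehicle livers (SD, n = 3 each) differed by -1.86 (SE 0.46, 95% interval -2.88 to -0.84), a 3.63-fold lower signal with a limma adjusted p of 0.0395. This call was close to its threshold: it was lost in 7 of the 12 fits that left out 1 array, with values from -2.26 to -1.41 and the highest adjusted p, 0.119, without CKO vehicle replicate 5. Without WT vehicle replicate 1, the highest of the 12 arrays, the difference was -1.41 (adjusted p = 0.115). Without CKO vehicle replicate 4, the array that stood apart, it was -1.80 (adjusted p = 0.0928) and not called. The call was also lost with no filter on low signal (adjusted p = 0.153) and with only the 2 groups in the fit (0.137).

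**Figure D1:**
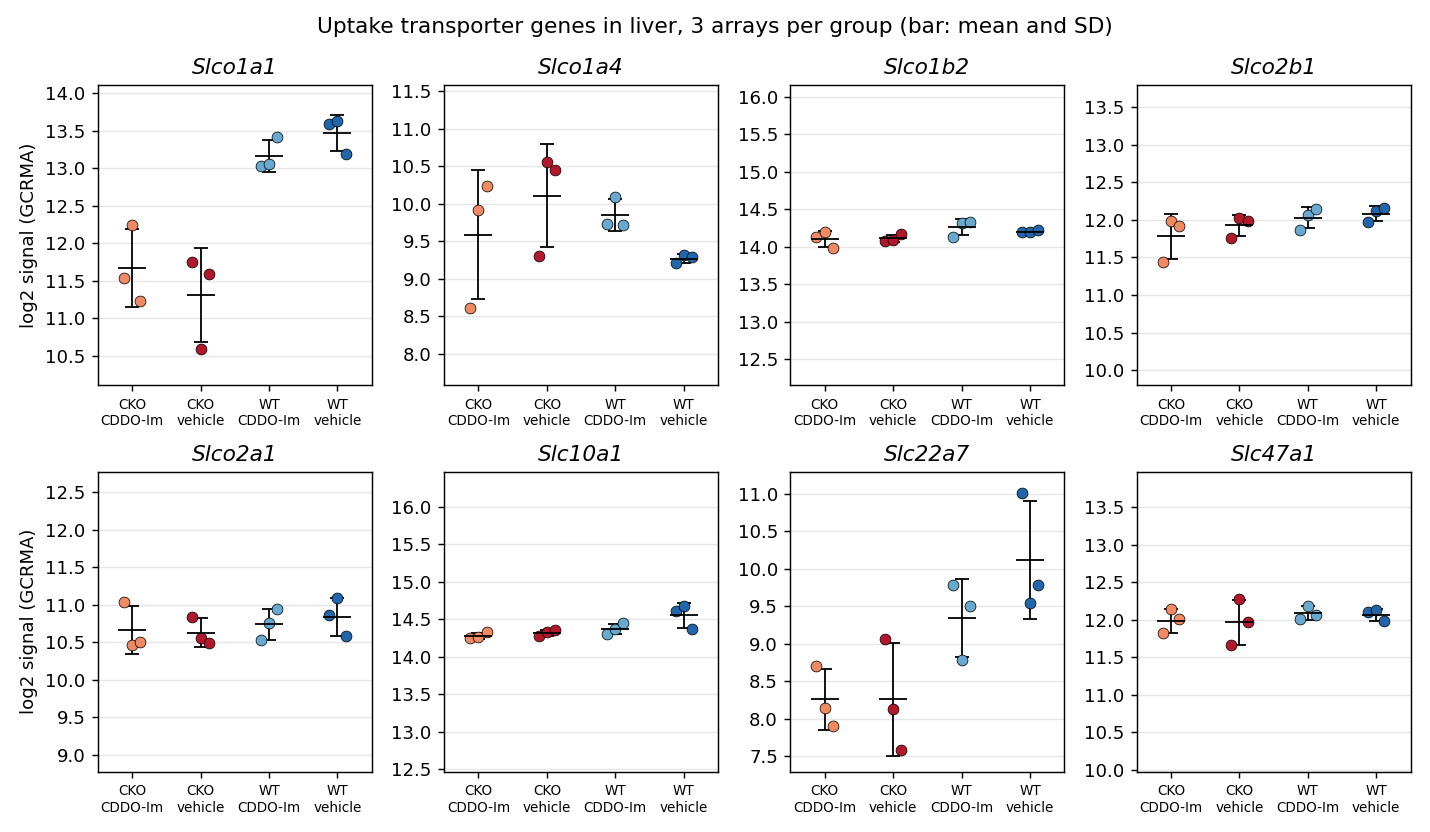
Log2 GCRMA signal of the 8 transporter genes (y axis, 4 log2 units in every panel) in CKO CDDO-Im, CKO vehicle, WT CDDO-Im and WT vehicle livers (x axis); points are arrays, bars the mean and SD of 3. All 6 CKO livers lie below all 6 WT livers for Slco1a1, Slc22a7 is lower in CKO than in WT vehicle livers, and Slco1a4 is spread widely in CKO livers.

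Slco1a4 (Oatp1a4), the neighbour of Slco1a1 and likewise a carrier of organic anions, was the only one of the 8 with a positive difference between CKO vehicle and WT vehicle livers, and it was not called. Its log2 signal was 8.61, 9.92 and 10.24 in CKO CDDO-Im, 9.31, 10.56 and 10.45 in CKO vehicle, 9.73, 10.09 and 9.72 in WT CDDO-Im and 9.21, 9.32 and 9.29 in WT vehicle livers. In CKO vehicle livers 2 values were above every WT value and the third lay among the WT vehicle values. The mean was 10.11 ± 0.69 in CKO vehicle and 9.27 ± 0.06 in WT vehicle livers (SD, n = 3 each), and the difference of 0.83 (SE 0.41, 95% interval -0.07 to 1.74) had a limma adjusted p of 0.263. Without CKO vehicle replicate 4 the difference was 0.61 (adjusted p = 0.491). The SD was 0.86 in CKO CDDO-Im and 0.69 in CKO vehicle livers, against 0.21 in WT CDDO-Im and 0.06 in WT vehicle livers. The spread was not itself tested.

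Slc10a1, the main sodium-dependent carrier of bile salts, read 14.25, 14.26 and 14.33 in CKO CDDO-Im, 14.28, 14.33 and 14.35 in CKO vehicle, 14.30, 14.37 and 14.45 in WT CDDO-Im and 14.61, 14.68 and 14.37 in WT vehicle livers. The highest CKO vehicle value was just under the lowest WT vehicle value. The difference of -0.23 (SE 0.09, 95% interval -0.42 to -0.04) did not pass the limma test over all genes, with an adjusted p of 0.144. It passed in 1 of 12 fits that left out an array, without WT vehicle replicate 3 (-0.33, adjusted p = 0.0367). The second probe set, 1424898_at, gave -0.22 (SE 0.10, adjusted p = 0.228).

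Slco1b2 (Oatp1b2), a basolateral carrier of bile salts, bilirubin and many drugs, varied little. Its brightest probe set ranged over all 12 arrays from 13.98 to 14.33. It read 14.07, 14.09 and 14.17 in CKO vehicle and 14.20, 14.19 and 14.22 in WT vehicle livers. The groups did not overlap, and their means differed by -0.09 (SE 0.08, 95% interval -0.27 to 0.08, limma adjusted p = 0.533). The probe sets 1452494_s_at and 1427826_a_at gave -0.15 (SE 0.10) and 0.15 (SE 0.14), neither called. The probe set 1427825_at, near the filter with a mean of 5.41, gave 0.01 (SE 0.13). For WT CDDO-Im minus WT vehicle it gave -0.34 (SE 0.13), and it was called in neither comparison.

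The other three genes gave no call between CKO vehicle and WT vehicle livers. Slco2b1, a carrier of sulfated steroids and drugs, had means of 11.93 ± 0.14 in CKO vehicle and 12.08 ± 0.10 in WT vehicle livers (SD, n = 3 each) and a difference of -0.15 (95% interval -0.48 to 0.17). Slco2a1, the prostaglandin transporter, which is also made by endothelium, had means of 10.63 ± 0.19 in CKO vehicle and 10.84 ± 0.25 in WT vehicle livers and a difference of -0.21 (95% interval -0.63 to 0.20). Slc47a1, the cation exporter, had means of 11.97 ± 0.30 in CKO vehicle and 12.07 ± 0.08 in WT vehicle livers and a difference of -0.10 (95% interval -0.42 to 0.21). The second Slco2b1 probe set, 1454777_at, gave -0.31 (SE 0.15) and was not called. It read 9.75, 10.07 and 10.12 in CKO vehicle and 10.25, 10.26 and 10.38 in WT vehicle livers, without overlap. For Slco2a1 the second probe set, 1450032_at, gave -0.04 (SE 0.16), not called. The 95% intervals bound the 3 differences of the brightest probe sets alone and do not show that the groups were equal. Of the 4 probe sets below the filter, Slco2b1 1458171_at lay at the floor of 2.22 on every array to 2 decimals.

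CDDO-Im in WT mice gave no called change in the 8 transporters. By limma's adjusted p, 0 of 8 passed, beside 3.65% of all genes, and 0 of 8 had an unadjusted p under 0.05, beside 19.6% of all genes. The median difference, WT CDDO-Im minus WT vehicle, was -0.08 over the 8 genes and -0.02 over all genes. The groups did not overlap for Slco1a4 alone, beside 23.3% of all genes, and its difference was 0.57 (SE 0.41, 95% interval -0.33 to 1.48, adjusted p = 0.489). For Slco1a1 the difference was -0.30 (SE 0.32, 95% interval -1.01 to 0.40), and for Slc22a7 it was -0.77 (SE 0.46, 95% interval -1.79 to 0.26). Slc10a1 was at -0.18 (SE 0.09, 95% interval -0.37 to 0.01). The other four lay between -0.10 (Slco2a1) and 0.05 (Slco1b2). In the same comparison 12 of 15 tested Nrf2 battery genes rose, among them Cbr3 by 5.87 (SE 0.88), with a WT vehicle mean under 5, and Nqo1 by 3.45 (SE 0.35). In CKO vehicle livers 10 of the 15 rose relative to WT vehicle livers, beside 6.51% of all genes called. Cbr3 rose by 10.11 (SE 0.88) and Nqo1 by 4.86 (SE 0.35).

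CDDO-Im in CKO mice likewise gave no call. Of all 8338 genes, 0 were called (0% of genes), and 9.47% had an unadjusted p under 0.05, as 0 of the 8 transporters did. The groups did not overlap for 14.6% of all genes and for 0 of the 8. Differences, CKO CDDO-Im minus CKO vehicle, were 0.36 (SE 0.32) for Slco1a1, -0.51 (SE 0.41) for Slco1a4 and -0.00 (SE 0.46) for Slc22a7. The other five lay between -0.14 (Slco2b1) and 0.03 (Slco2a1).

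Under the drug, CKO minus WT livers gave the same order for Slco1a1 with a difference that just missed the threshold. CKO CDDO-Im livers averaged 11.67 ± 0.52 and WT CDDO-Im livers 13.16 ± 0.21 (SD, n = 3 each). The difference of -1.50 (SE 0.32, 95% interval -2.21 to -0.79), a 2.82-fold lower signal, had a limma adjusted p of 0.0515. It passed under 5 other settings, with adjusted p between 0.0363 and 0.0444, and without CKO vehicle replicate 4 (0.0245). It was not called in the other 11 of 12 fits that left out 1 array. The highest adjusted p of these was 0.139, without WT CDDO-Im replicate 3. The remaining settings did not call it either, among them the test of every probe set (0.0519 for the same probe set). The second probe set gave -1.69 (SE 0.30) and was called, with an adjusted p of 0.0259 over 13298 probe sets, of which 1.47% were called. For Slc22a7 the difference was -1.10 (SE 0.46, adjusted p = 0.267), and its groups did not overlap. In all, 0 of 8 genes were called in the fit of 1 probe set per gene, beside 1.54% of all genes, 2 had an unadjusted p under 0.05 (Slco1a1 and Slc22a7), and 2 had groups apart, beside 22.7%. The other members lay between -0.25 (Slco1a4) and -0.08 (Slco2a1).

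Set directly against each other, Keap1 deletion and the drug differed for Slco1a1. It was the 1 gene of 8 called between CKO vehicle and WT CDDO-Im livers, where 4.29% of all genes were called, and the 1 with groups apart, beside 27.8% of all genes. Its means of 11.31 ± 0.63 in CKO vehicle and 13.16 ± 0.21 in WT CDDO-Im livers (SD, n = 3 each) differed by -1.85 (SE 0.32, limma adjusted p = 0.0146), a 3.61-fold lower signal in CKO vehicle livers. The call was lost with no filter (adjusted p = 0.0663) and with only the 2 groups in the fit (0.06). Slc22a7 was at -1.10 (SE 0.46, adjusted p = 0.189). Slco1a4 was at 0.26 (SE 0.41), and the other five lay between -0.15 (Slco1b2) and -0.05 (Slc10a1).

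The interaction, the effect of CDDO-Im in CKO mice minus that in WT mice, was called for 0 of the 8 genes, beside 0.276% of all genes, and 0 of 8 had an unadjusted p under 0.05, beside 10.3%. It was -1.09 (SE 0.58, 95% interval -2.37 to 0.19, limma adjusted p = 0.562) for Slco1a4, 0.66 (SE 0.45, adjusted p = 0.668) for Slco1a1 and 0.77 (SE 0.65, adjusted p = 0.727) for Slc22a7. The intervals of these 3 span more than 1 log2 unit, so a moderate interaction was not detectable with 3 arrays a group. Between CKO vehicle and WT vehicle livers and between CKO CDDO-Im and WT CDDO-Im livers the effect of the deletion was therefore not shown to differ.

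**Figure D2:**
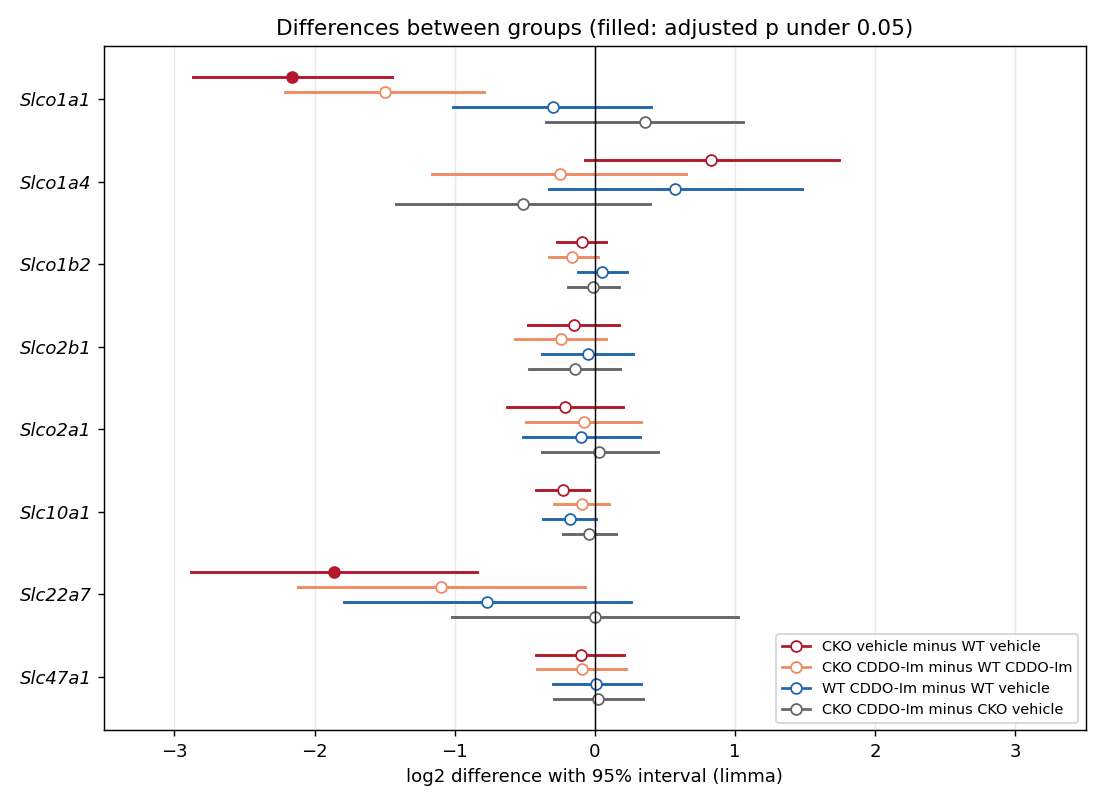
Log2 differences between groups (x axis) for the 8 transporter genes (y axis) in 4 comparisons; points are limma estimates, lines 95% intervals, and filled points passed an adjusted p under 0.05. Only Slco1a1 (-2.16) and Slc22a7 (-1.86) in CKO vehicle minus WT vehicle livers are filled, and the intervals of Slco1b2 and Slc10a1 are the narrowest.

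Averaged over both treatments, an alternative added with the data in view, the deletion effect on Slco1a1 was -1.83 (SE 0.23, 95% interval -2.33 to -1.32, limma adjusted p = 0.00133), a 3.55-fold lower signal. The 6 CKO livers ranged from 10.59 to 12.24 with a median of 11.56, and the 6 WT livers from 13.03 to 13.63 with a median of 13.30. For Slc22a7 the averaged effect was -1.48 (SE 0.33, adjusted p = 0.0185), with 7.58 to 9.06 (median 8.14) in CKO livers and 8.78 to 11.01 (median 9.67) in WT livers, so the ranges overlapped. No other member was called. In this averaged comparison 10.6% of all genes were called, and 4.87% had ranges apart. The drug effect averaged over genotypes was called for 0 of the 8, beside 2.46% of all genes, and it was 0.03 (SE 0.23) for Slco1a1 and 0.03 (SE 0.29) for Slco1a4.

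The genes whose pattern over the 12 arrays was most like that of Slco1a1 were C6, Tnfaip8l1 and Ttc39c. Likeness was the root mean square difference of mean-centred log2 signals, which was 0.43, 0.44 and 0.45 for these genes, against a median of 1.01 over all tested genes and 0.99 for a gene that did not vary. C6 is a complement component. The 3 genes were chosen for this likeness, so their own group differences are not given as results. For Slc22a7 the closest were Acsl3, an acyl-CoA synthetase, Insig1, which holds back sterol-regulated transcription, and Ttc39c, at 0.48, 0.50 and 0.51, against a median of 0.96 and 0.94 for a gene that did not vary. Ttc39c was thus among the closest of both transporters.

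The sex-biased liver genes were described because Slco1a1 is one of the male-biased transporters of mouse liver. These and the other gene lists were chosen with earlier results of these data known, so the shares called in them are descriptions. The male-biased list held 17 genes, of which 12 had a probe set specific to 1 gene. Of 12 tested male-biased genes, 4 (33.3%) fell in CKO vehicle livers, beside 3.26% of all genes called lower. The median difference was -0.89, beside -0.01 over all genes. Hsd3b5, a steroid dehydrogenase, differed by -4.71 (SE 0.89, limma adjusted p = 0.0121) and Elovl3, a fatty acid elongase, by -3.17 (SE 0.58, adjusted p = 0.0104), and Cyp2u1 (-1.49) and Nudt7 (-1.30) were the other two. Male-biased genes such as Cyp2d9 (0.05) and Mup3 (-0.15) were not called. In WT CDDO-Im minus WT vehicle livers 1 of the 12 was called, Nudt7 at -1.22 (SE 0.22, adjusted p = 0.0163), beside 3.65% of all genes. Between CKO vehicle and WT vehicle livers, 0 of 6 tested female-biased genes were called. Cyp2b9 was over the filter on 3 CKO arrays and on 0 WT arrays. Without it the median of the 5 others was 0.28, and they included Cyp2b10 at 2.37 (SE 0.83, adjusted p = 0.124).

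Array by array, the mean of the 12 male-biased genes was 11.71, 11.88 and 11.66 in CKO CDDO-Im, 11.68, 10.92 and 11.74 in CKO vehicle, 11.93, 12.14 and 12.43 in WT CDDO-Im and 12.76, 12.50 and 12.68 in WT vehicle livers. Its lowest array was CKO vehicle replicate 4, which also had the lowest Slco1a1 and the highest Slco1a4. The mean of the 5 female-biased genes other than Cyp2b9 was 7.30, 7.99 and 7.92 in CKO CDDO-Im, 7.52, 8.65 and 7.76 in CKO vehicle, 6.77, 7.30 and 7.37 in WT CDDO-Im and 6.90, 7.12 and 6.97 in WT vehicle livers. Without CKO vehicle replicate 4 the same 4 male-biased genes were called lower, with a median of -0.66, and 0 female-biased genes were called. Slco1a1 was then at -1.80 and still called. With WT vehicle replicate 1 left out as well, Slco1a1 was the 1 transporter called and Slc22a7 was at -1.35 (adjusted p = 0.197). The part of these lists in the Slco1a1 difference was not tested.

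**Figure D3:**
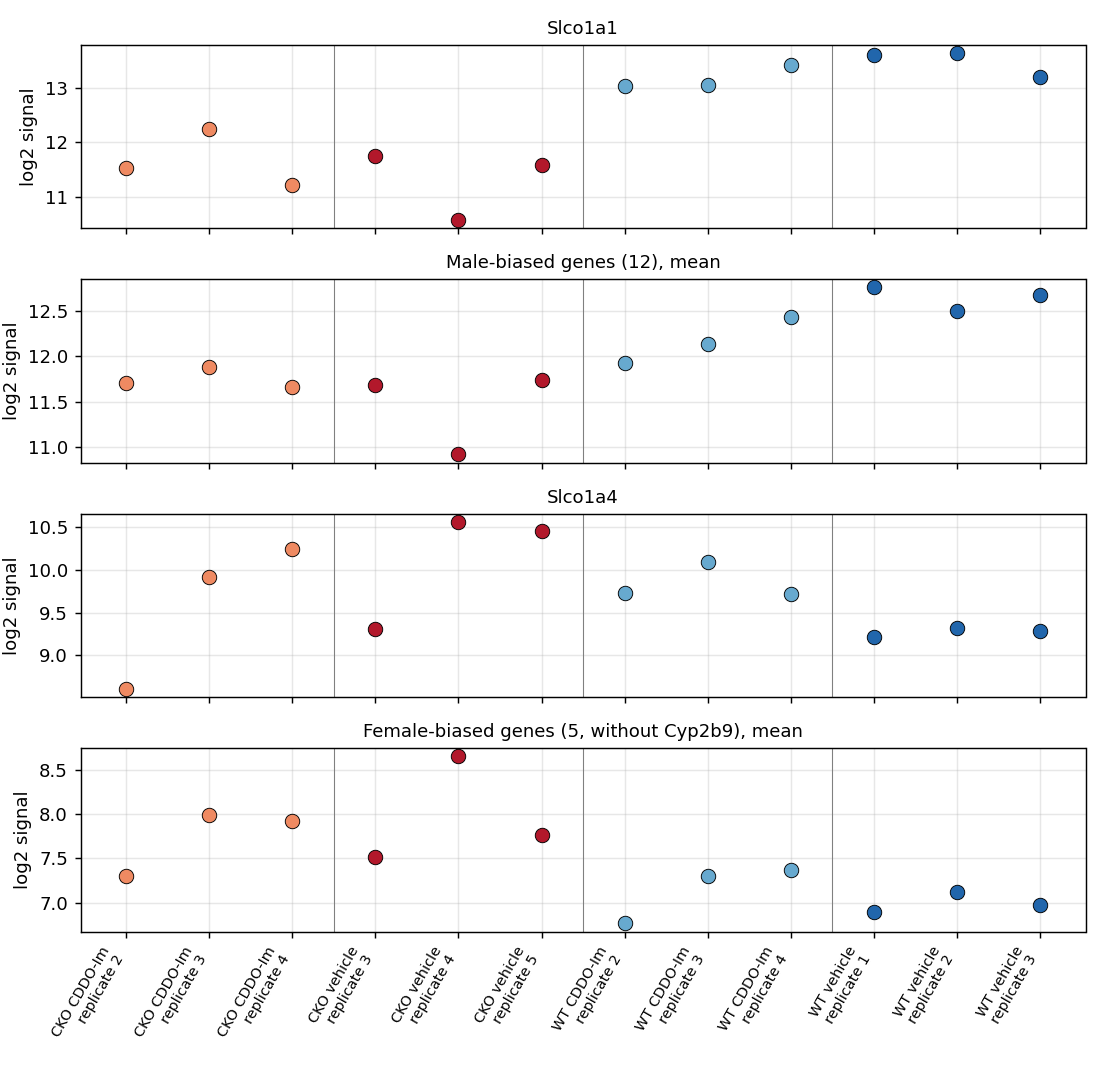
Log2 signal (y axis, each panel on its own scale) on each of the 12 arrays (x axis, coloured by group) for Slco1a1, the mean of 12 male-biased genes, Slco1a4 and the mean of 5 female-biased genes (without Cyp2b9). Slco1a1 and the male-biased mean are lower on CKO than on WT arrays, and CKO vehicle replicate 4 has the lowest of both and the highest female-biased mean of 8.65.

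Other transport genes were listed from general knowledge, with earlier results of these data known. The 7 other organic anion transporting polypeptides (Slco1a5, Slco1a6, Slco1c1, Slco3a1, Slco4a1, Slco4c1 and Slco5a1) did not reach the filter, and Slco3a1, with group means of 4.62 to 4.83, was the only one above the floor. Slc22a12 (Urat1), a urate carrier known from kidney, read 7.41, 6.57 and 9.22 in CKO CDDO-Im, 9.02, 8.38 and 8.78 in CKO vehicle, 3.37, 3.45 and 3.39 in WT CDDO-Im and 3.45, 3.37 and 3.60 in WT vehicle livers. It passed the low-signal filter through its 6 CKO arrays alone, so these values are a description and are left out of the count. Of the 5 other tested carriers of the SLC22, SLC47 and SLC10 families, 1 rose in CKO vehicle livers, Slc22a18 by 0.68 (SE 0.09, limma adjusted p = 0.00231), and none fell. Their median difference was 0.06, beside -0.01 over all genes, of which 6.51% were called.

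Abcb1a passed the filter through 3 CKO arrays alone and is left out here. Of the 10 other tested efflux pumps and related genes, 3 rose in CKO vehicle livers and none fell, beside 6.51% of all genes called. Their median difference was 0.48, beside -0.01 over all genes. Abcc4 (Mrp4), which exports bile salts and conjugates back to blood, rose by 5.76 (SE 0.28, limma adjusted p = 3.92e-06), Abcc3 (Mrp3), another basolateral exporter, by 0.75 (SE 0.13, adjusted p = 0.00821) and Abcc2 (Mrp2), which exports conjugates into bile, by 0.69 (SE 0.12, adjusted p = 0.01). The WT vehicle mean of Abcc4 was 5.29, close to the low-signal filter of 5, so its differences rest on a low baseline. Abcb11, the bile salt export pump, was at -0.49 (SE 0.15, adjusted p = 0.0772). In WT CDDO-Im livers 2 of the 10 rose, beside 3.65% of all genes called. These were Abcc4 by 1.67 (SE 0.28, adjusted p = 0.011) and Abcc3 by 0.55 (SE 0.13, adjusted p = 0.0418). Without CKO vehicle replicate 4, Slc22a18 and the same 3 exporters were called in CKO vehicle livers.

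**Figure D4:**
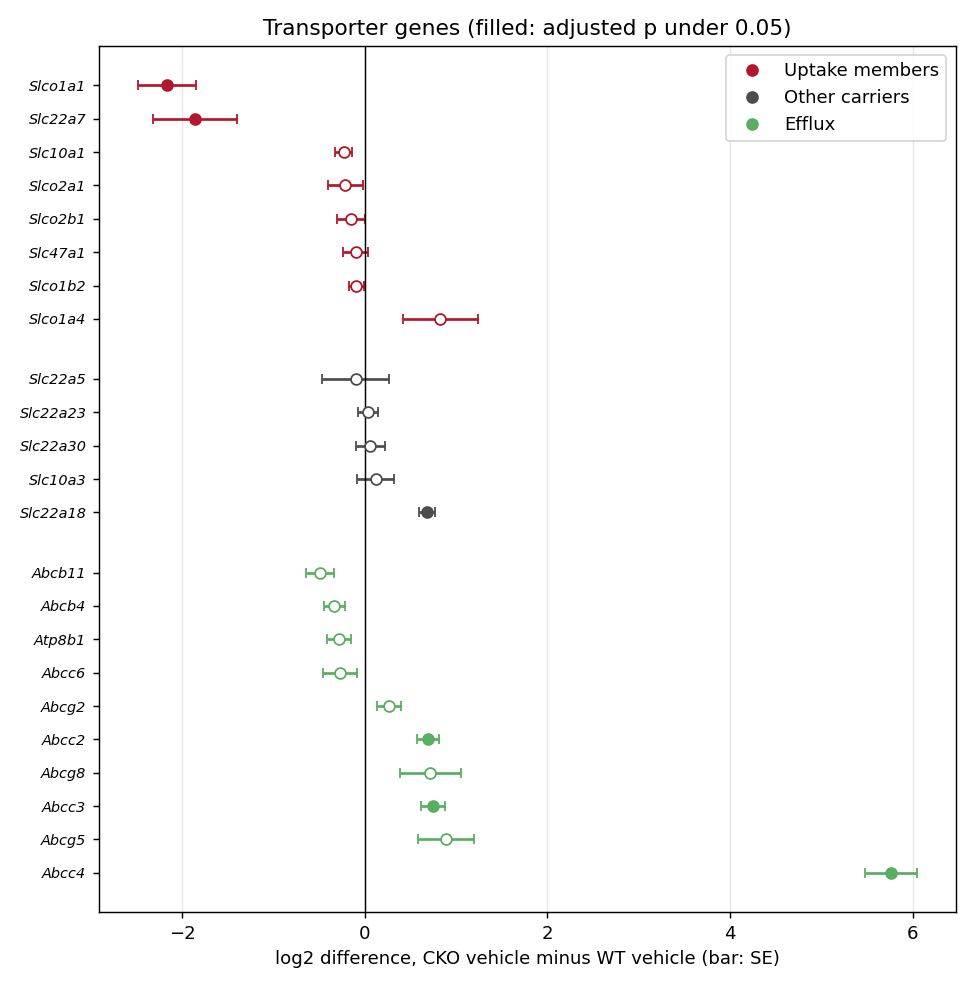
Log2 difference, CKO vehicle minus WT vehicle (x axis, bars are SE), for the 8 uptake members, 5 other carriers and 10 efflux genes (y axis); filled points passed an adjusted p under 0.05. The 2 called uptake members are lower and the 4 called genes of the other lists are higher. Abcc4 is at 5.76, from a low WT vehicle mean of 5.29.

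Genes that make bile acids or regulate transporter genes were called at 20% (2 of 10) and 25% (4 of 16) between CKO vehicle and WT vehicle livers, beside 6.51% of all genes. Of 10 tested genes of bile acid synthesis and conjugation, Acox2 rose by 0.65 (SE 0.13) and Amacr fell, at -0.60 (SE 0.09), in CKO vehicle livers. Cyp7a1, the rate-limiting enzyme, was at 0.02 (SE 0.47). Of 16 tested regulators, 1 rose, the nuclear receptor Nr1i3 by 0.50 (SE 0.12), and 3 fell, Ppara at -1.02 (SE 0.26), the growth hormone receptor Ghr at -0.76 (SE 0.10, limma adjusted p = 0.00264) and Nfe2l2, which encodes Nrf2, at -0.76 (SE 0.14). Without CKO vehicle replicate 4, Amacr, Nfe2l2 and Ghr were called and Acox2, Nr1i3 and Ppara were not. The growth hormone signal transducer Stat5b was at -0.02 (SE 0.17).

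Of the markers of other liver cells, 3 were called between CKO vehicle and WT vehicle livers, beside 6.51% of all genes. Of 11 tested endothelial markers 1 rose, Lyve1 by 2.24 (SE 0.46), of 8 macrophage markers 1 rose, Marco by 2.30 (SE 0.46), and of 7 stellate cell markers 1 fell, Reln at -0.51 (SE 0.12). The mean over the endothelial markers was 8.47 to 8.53 in CKO vehicle and 8.34 to 8.51 in WT vehicle livers, with Pecam1 below the filter. The macrophage mean was 9.58 to 10.26 in CKO vehicle and 8.98 to 9.99 in WT vehicle livers, with Cd68 and Timd4 below the filter, and the stellate mean was 8.07 to 8.37 in CKO vehicle and 8.36 to 8.71 in WT vehicle livers, with Des, Col1a1 and Hgf below the filter. Of the cholangiocyte markers 1 was tested, Epcam, and 0 were called. Epcam hardly varied, with group means of 7.28 to 7.31, so it says little about these cells. Krt19, Krt7, Sox9 and Cldn7 were below the filter. The part of these markers in the transporter results was not tested.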

How the data were processed

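Total liver RNA of 12 mice was hybridised to Affymetrix mouse arrays, per the labels. The values analysed are log2 signals deposited by the authors, and the submitters' processing notes name GCRMA 2.12.1 and R 2.7.0. GCRMA subtracts a background modelled on probe sequence, makes the arrays comparable and gives 1 value per probe set. No genome build is named in the files. Of 45101 probe sets, 34945 name 1 gene in the platform annotation, 932 name several and 9160 none, and 64 controls were left out. Each gene was represented by the probe set with the highest mean.

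A model of 4 group means was fitted with limma 3.58.1 in R 4.3.3 to the 8338 genes over a log2 signal of 5 on at least 3 arrays (8 residual and 2.32 prior degrees of freedom). Its p-values were two-sided and were Benjamini-Hochberg adjusted over the genes within each of 6 comparisons, not across the comparisons. A linear fold was computed where neither group mean was under 5, and the number of arrays limits the precision. Simulated data for CKO vehicle minus WT vehicle, with 8338 genes, gave back 85% of genes changed by 1 log2 unit and 96% of those changed by 2, with 8 false calls. The changed genes were drawn at random. In the real data the median SE over all genes was 0.13, against 0.32 for Slco1a1, 0.41 for Slco1a4 and 0.46 for Slc22a7. The shares given back therefore do not apply to these transporters.

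The transporters and the gene lists were chosen with earlier results of these data known. Named genes were the 8 transporters, the called members of each list with the 2 largest rises and falls, Keap1 and Nqo1, the markers called or below the filter, and the 3 genes most like each called transporter; other list members named (the other organic anion transporting polypeptides, Cyp2u1, Nudt7, Cyp2d9, Mup3, Cyp2b10, Cyp7a1, Abcc2, Abcb11, Nfe2l2, Stat5b) were chosen after their values were seen. Replicates are separate mice per the labels. Alternatives were quantile normalization, median centring, other filters, other rules for probe sets, other variance models, a replicate block and leaving out each array. List members over the filter in CKO arrays alone (Slc22a12, Abcb1a and Cyp2b9) were left out of list medians after their values were seen.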

Additional observations from a re-analysis of the deposited data

How the results depend on the processing

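Between CKO vehicle and WT vehicle livers, the 2 transporters called became 1 (Slco1a1) with no filter on low signal, 1 with only these 2 groups in the fit, 1 with CKO vehicle replicate 4 and WT vehicle replicate 1 both left out (an alternative chosen after seeing the data) and 0 with a replicate block, and 1 to 2 with 1 array left out. Slc22a7 was the call lost, at -1.86 with an adjusted p of 0.153 with no filter and 0.137 with 2 groups. With the replicate block, Slco1a1 was at -2.09 (limma adjusted p = 0.116) and Slc22a7 at -0.78 (adjusted p = 0.443). The replicate numbers are only shared names. Deviations were correlated over 0.1 in 3 of 12 pairs with the same number (range -0.17 to 0.15). They were so in 8 of 42 pairs with different numbers (-0.25 to 0.25). CKO vehicle and WT vehicle livers have only number 3 in common. The block took the calls over all genes to 55, against 543 without it. Between CKO CDDO-Im and WT CDDO-Im livers, 0 transporters became 1 (Slco1a1) with quantile normalization (adjusted p = 0.0444), median centring (0.0432), a stricter filter (0.0426), the mean of all probe sets (0.0363) and a trended, robust variance (0.0403), and 0 to 1 with 1 array left out, the 1 being without CKO vehicle replicate 4 (0.0245). Between CKO vehicle and WT CDDO-Im livers, the 1 call (Slco1a1) became 0 with no filter (0.0663), with 2 groups (0.06) and with the replicate block (0.0708), and stayed at 1 in the 12 fits that left out an array. With no filter more genes share the adjustment, and with 2 groups fewer arrays set the spread. The cause of a lost or gained call was not tested for any setting. The drug effect in WT mice, that in CKO mice and the interaction stayed at 0 called transporters in every fit. No called difference changed sign; of the uncalled ones, 20 of 403 refits with another setting (-0.31 to 0.18) and 31 of 540 with 1 array left out (-0.15 to 0.40) had the other sign, with 0 called.

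Over all genes, calls with no filter, with 2 groups and with the block were 232, 223 and 55 against 543 for CKO vehicle minus WT vehicle, 124, 85 and 114 against 304 for WT CDDO-Im minus WT vehicle, 29, 56 and 42 against 128 for CKO CDDO-Im minus WT CDDO-Im, and 119, 112 and 150 against 358 for CKO vehicle minus WT CDDO-Im. The interaction had 7 with no filter and 3 with the block against 23. Testing each probe set gave 828, 526, 195 and 42 for CKO vehicle minus WT vehicle, WT CDDO-Im minus WT vehicle, CKO CDDO-Im minus WT CDDO-Im and the interaction, from 13298 probe sets. CKO CDDO-Im minus CKO vehicle had 1 with no filter and 2 with the block against 0. With 1 array left out, calls over all genes ranged from 275 to 537 for CKO vehicle minus WT vehicle (fewest without CKO vehicle replicate 3), 106 to 318 for WT CDDO-Im minus WT vehicle, 32 to 139 for CKO CDDO-Im minus WT CDDO-Im, 108 to 379 for CKO vehicle minus WT CDDO-Im and 2 to 31 for the interaction. Median centring made 65.3% of calls for WT CDDO-Im minus WT vehicle rises, against 51.6%. With 3 mice a group, Slco1a4 could differ by over 1 log2 unit without passing the test, and 1 probe set stands for Slc22a7.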
